A study of Mus musculus with 6 samples.

Results

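The cytosolic ribosomal protein genes of a mouse acute myeloid leukemia (AML) were compared between mice treated with AG636, an inhibitor of the pyrimidine synthesis enzyme DHODH, and mice given vehicle. They are the 77 protein-coding genes, of 54838 in the count table, whose symbols follow the pattern of a large subunit (Rpl) or small subunit (Rps) protein. Of these, 46 encode large subunit proteins and 31 small subunit proteins. Pseudogenes, the S6 kinases and the paralogs with an "l" suffix were left out by the pattern, and ribosomal proteins with other names, such as Fau and Rack1, are not among the 77 either.

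The leukemia, called I1DN, carries IDH1R132H, DNMT3AR882H and NrasG12D, which were introduced together into fetal liver progenitors of C57BL/6 background. It was transplanted into sublethally irradiated Ptprca recipients, and 3 mice received vehicle and 3 received AG636 at 100 mg/kg by gavage, given b.i.d. (2 doses a day). After 1 day of treatment, leukemic cells with cKit and without CD11b on their surface were sorted from bone marrow and spleen, and 1 library per mouse was sequenced from the 3′ ends of its mRNAs. All 6 mice carried the same 3 alleles, there was no untransplanted control among these libraries, and the age of the mice is not given in the sources used here.

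Each ribosome holds 1 copy of nearly every ribosomal protein, and the pair of acidic stalk proteins is present in more than 1 copy. Most of these mRNAs begin with a C followed by a run of pyrimidines, the 5′ terminal oligopyrimidine (TOP) motif, through which LARP1 and the kinase mTOR control their translation and stability. In blood formation these genes are best known from Diamond-Blackfan anaemia, in which loss of 1 copy of a single ribosomal protein gene impairs red cell production.

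The RefSeq promoter table (build GRCm38.p6) held a start for 57 of the 77 genes. Below are 70 bases around that start for 8 of them, 50 before it and 20 from it, chosen to set genes that were called, with short and long pyrimidine runs, beside genes that carry such a run and were not called. Capitals mark the longest pyrimidine run in the window of 20 bases before the start and 20 from it. In Rpl39 a further pyrimidine lies just before that window. The first 4 genes passed the test for a fall with AG636, the others did not.
Rpl41 (chr10:128549149-128549218, minus strand): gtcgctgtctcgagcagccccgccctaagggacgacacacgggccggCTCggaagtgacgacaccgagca
Rpl18 (chr7:45718021-45718090, plus strand): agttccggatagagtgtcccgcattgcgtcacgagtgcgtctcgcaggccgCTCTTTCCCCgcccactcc
Rpl13a (chr7:45128726-45128795, minus strand): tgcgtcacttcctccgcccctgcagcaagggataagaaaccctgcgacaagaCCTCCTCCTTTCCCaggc
Rpl15 (chr14:18270967-18271036, minus strand): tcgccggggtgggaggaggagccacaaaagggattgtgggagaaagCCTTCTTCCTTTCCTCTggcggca
Rps6 (chr4:86857348-86857417, minus strand): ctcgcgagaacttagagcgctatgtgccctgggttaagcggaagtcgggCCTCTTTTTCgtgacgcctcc
Rpl5 (chr5:107900478-107900547, plus strand): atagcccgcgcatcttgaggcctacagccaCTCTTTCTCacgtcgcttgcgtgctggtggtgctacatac
Rplp2 (chr7:141447601-141447670, plus strand): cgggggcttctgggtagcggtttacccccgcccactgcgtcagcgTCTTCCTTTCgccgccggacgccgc
Rpl39 (chrX:37085203-37085272, minus strand): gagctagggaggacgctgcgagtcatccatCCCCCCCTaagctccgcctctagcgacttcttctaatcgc

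The 6 libraries held between 4634963 and 7906589 counts, and levels are given as CPM, a gene's reads scaled to a common library total adjusted by TMM. A level of 3 counts corresponded to 0.392 to 0.637 CPM, a floor that covers counting error only, because no molecular identifiers were described. CPM count reads at 3′ ends and are not divided by gene length, so they are compared between mice and not between genes. All 77 genes passed the filter on low counts and were among the 11092 genes tested. The cells could be checked against their sort: Kit was at 31.7 to 46.1 CPM and Myb at 395 to 550.0 CPM in every mouse. Cd34 was at 88.0 to 207 CPM, and Flt3, at 0.522 to 4.31 CPM, did not pass the filter. Itgam, which encodes CD11b, was detected in every mouse, at 12.1, 18.3 and 26.9 CPM with vehicle and 59.9, 31.2 and 41.0 CPM with AG636. It rose with AG636 (log2 fold change 1.21, SE 0.31, adjusted p = 0.0219).

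Vehicle 3 stood apart from the other vehicle mice. For each gene the log2 CPM was taken relative to its mean in the vehicle mice, and the median over the 77 genes was 0.04 in Vehicle 1, 0.07 in Vehicle 2 and -0.11 in Vehicle 3. The AG636 mice lay together, at -0.30, -0.28 and -0.32. Vehicle 3 had the lowest vehicle value for 50 of the 77 genes, and still lay above all 3 AG636 mice for 68.

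**Figure D1:**
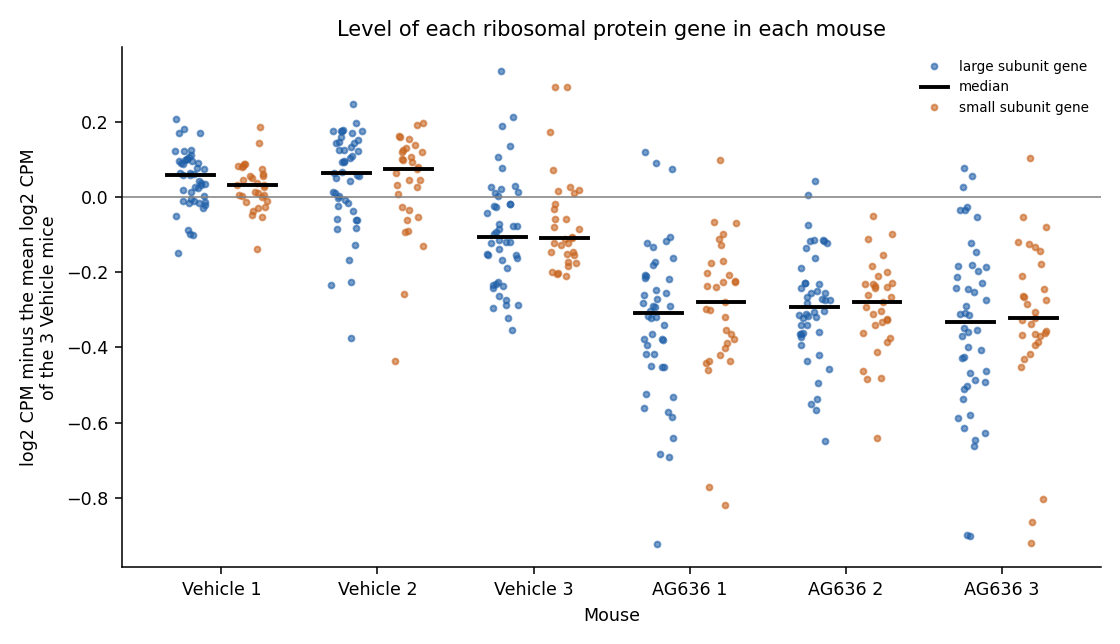
Level of the 46 large subunit (blue) and 31 small subunit (orange) genes in each mouse, as log2 CPM minus the gene's mean log2 CPM in the 3 Vehicle mice. Black bars are medians. The Vehicle 3 medians (-0.11 in both subunits) lie between those of the other Vehicle mice (0.03 to 0.08) and those of the AG636 mice (-0.33 to -0.28).

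Taken as a share of all counts, the 77 genes made up 10.8%, 11.2% and 10.2% in Vehicle 1 to 3, and 9.35%, 9.38% and 9.57% in AG636 1 to 3. Every AG636 mouse thus lay below every vehicle mouse. The lowest vehicle mouse, Vehicle 3, had a 95% Wilson interval of 10.1% to 10.2% and the highest treated mouse, AG636 3, one of 9.54% to 9.59%. These intervals cover counting error only, not the spread among mice. In summed CPM the level was 110816 ± 6818 with vehicle and 91479 ± 418 with AG636 (SD, n = 3 each), a ratio of 0.826. In bulk RNA such as this, less RNA per cell and fewer cells of a type cannot be told apart.

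Gene by gene, 25 of the 77 fell and 0 rose at an adjusted p under 0.05 (quasi-likelihood F test in edgeR, Benjamini-Hochberg over all genes). Of all genes tested, 11.0% were called lower, 10.3% higher and 21.3% in either direction. DESeq2 and limma-voom called 29 and 27 lower and also 0 higher, and at an unadjusted p under 0.05, 48 of the 77 were lower and 0 higher, against 18.4% and 18.7% of all genes. The 3 AG636 mice all lay below the 3 vehicle mice for 61 genes, where 20.6% of all genes showed such a gap.

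The changes were small. The log2 fold changes had quartiles of -0.41 and -0.22 around a median of -0.31, beside a median of 0.03 for all genes tested, and standard errors between 0.09 and 0.29. Only 4 of the 77 (Rpl41, Rps12, Rpl18 and Rpl7) were called with a fold change of at least 1.5, against 7.75% of all genes tested. At an adjusted p under 0.01, the calls were Rpl41, Rpl7 and Rplp1, against 2.93% of all genes.

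The number of calls moved with single mice far more than the median did. It was 5 without Vehicle 1, 6 without Vehicle 2, 38 without Vehicle 3, 4 without AG636 1, 18 without AG636 2 and 4 without AG636 3, while the median stayed between -0.40 and -0.30. In the same order these were 6.49%, 7.79%, 49.4%, 5.19%, 23.4% and 5.19% of the 77 genes, beside 6.18%, 6.10%, 11.3%, 5.54%, 10.3% and 4.03% of all genes tested in those fits. Without Vehicle 1, Vehicle 2, AG636 1 or AG636 3, the share of the 77 genes called was thus near that of all genes. The 25 genes were all among the 38 called without Vehicle 3. With library size alone as the scaling, 11 (14.3%, against 8.23% of all genes) were called and the median was -0.22. That scaling put the median of all genes at 0.12, with 913 genes called lower and 1483 higher, against 1222 and 1146 with TMM. TMM assumes that most genes do not change, so these values cannot tell which scaling is right.

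**Figure D2:**
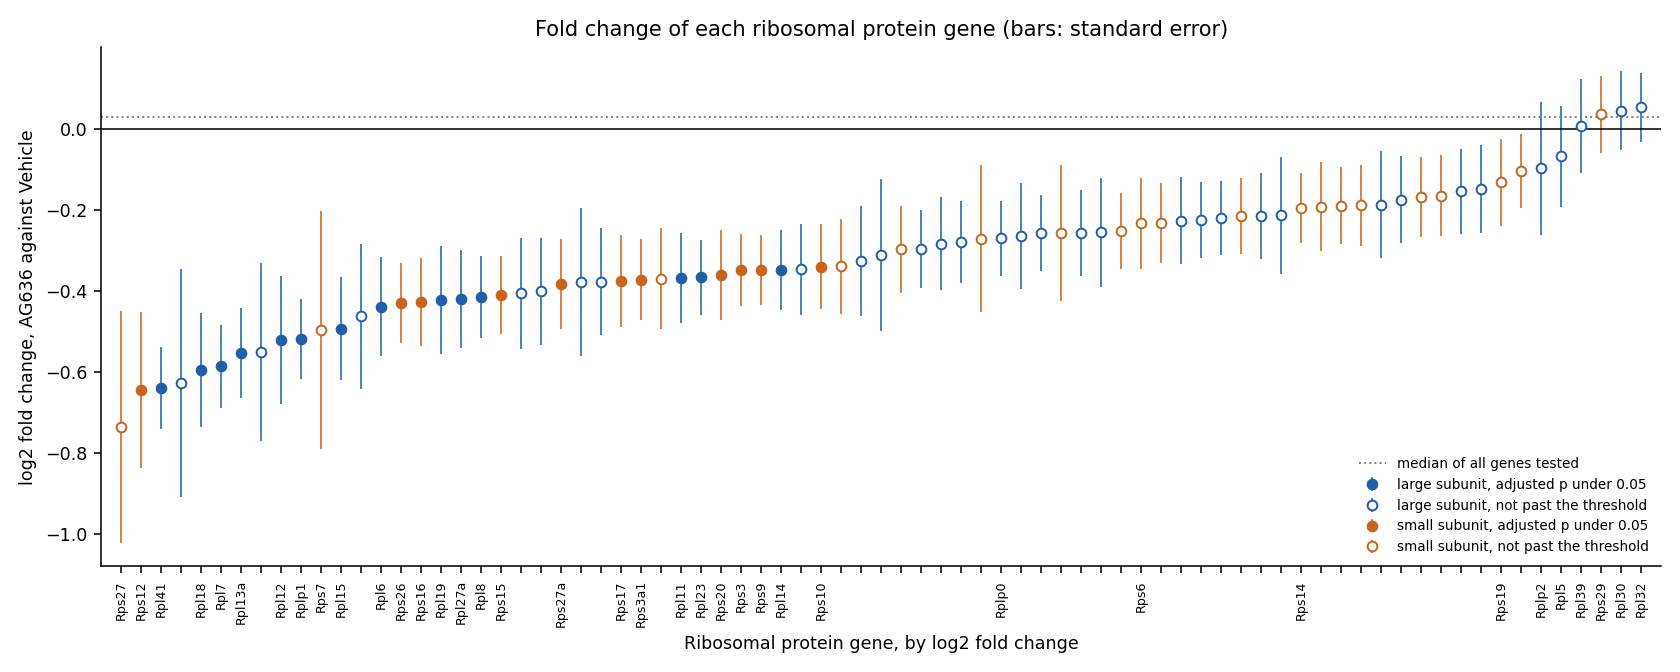
log2 fold change (AG636 against Vehicle) of the 77 genes in order, with standard errors (3 mice per group). Filled points passed an adjusted p of 0.05, and the axis names these genes and those described in the text by rule. The values run from -0.74 (Rps27) to 0.05 (Rpl32), and the filled points all lie below 0.

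In the large subunit, the lowest adjusted p belonged to Rpl41 (chr10:128548114-128549305, minus strand, mm10), which encodes the smallest ribosomal protein, a short basic peptide. It was at 1643, 1632 and 1445 CPM in the vehicle mice and at 977, 1002 and 1051 CPM in the AG636 mice. The groups were well separated, with Vehicle 3 the lowest of its group. It fell by 35.8% (log2 fold change -0.64, SE 0.10, adjusted p = 0.00443).

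Rpl7 (chr1:16101295-16104662, minus strand), whose protein lies near the 5S rRNA, was at 2176, 2379.5 and 1974 CPM with vehicle and 1392, 1465 and 1494 CPM with AG636. All AG636 mice lay below all vehicle mice. The log2 fold change was -0.59 (SE 0.10, adjusted p = 0.00621). Rpl13a (chr7:45125558-45128761, minus strand), which encodes a protein also known for silencing inflammatory mRNAs outside the ribosome, was at 348, 315 and 299 CPM against 215, 227 and 213 CPM. Here too the groups did not overlap, and the log2 fold change was -0.55 (SE 0.11, adjusted p = 0.0101). It holds 4 snoRNA genes within its bounds.

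Rpl18 (chr7:45715457-45720836, plus strand), a gene linked to Diamond-Blackfan anaemia, was at 269, 261 and 195 CPM with vehicle and at 165, 163 and 151 CPM with AG636. Vehicle 3 lay nearer to the AG636 mice than to the other vehicle mice. It fell by 33.8% (log2 fold change -0.60, SE 0.14, adjusted p = 0.0173). Its call was lost without Vehicle 1, Vehicle 2, AG636 1 or AG636 3, with adjusted p of 0.0511, 0.0629, 0.0506 and 0.0666. Rpl18 overlaps Sphk2 on the opposite strand, which had 1753 counts against 6809 for Rpl18, and whether strand was used in counting is not given in the sources used here.

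Rpl15, whose protein lies within the core of the large subunit, was at 1564, 1651 and 1208 CPM with vehicle and at 990.0, 1093 and 1059.9 CPM with AG636. Vehicle 3 was again the nearest to the treated mice, and the log2 fold change was -0.49 (SE 0.13, adjusted p = 0.0244). Its call was lost without any of the same 4 mice, with adjusted p between 0.0693 and 0.0850.

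The P-stalk recruits translation factors to the ribosome through Rplp0, which anchors it, and the acidic proteins Rplp1 and Rplp2, which bind Rplp0 as pairs. Rplp1 (chr9:61913284-61914542, minus strand), which had the highest CPM of the 77, was at 5869.6, 5704 and 4891 CPM with vehicle and 3648, 3987 and 3860.5 CPM with AG636. It fell with a log2 fold change of -0.52 (SE 0.10, adjusted p = 0.00845). Rplp0 was at 1677, 1522 and 1634 CPM against 1305, 1348 and 1352 CPM, without overlap, and did not pass the test (-0.27, SE 0.09, adjusted p = 0.0631).

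Rplp2 was at 439.7, 330.1 and 541 CPM with vehicle and 391, 396 and 437 CPM with AG636. The treated mice lay inside the vehicle range, and the log2 fold change was -0.10 (SE 0.16, adjusted p = 0.699). It was 0.06 without Vehicle 3. The ratio of Rplp1 to Rplp2 CPM was 13.3, 17.3 and 9.05 with vehicle and 9.33, 10.1 and 8.84 with AG636. The ratio in Vehicle 3 lay within the range of the AG636 mice, so the groups overlapped.

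**Figure D3:**
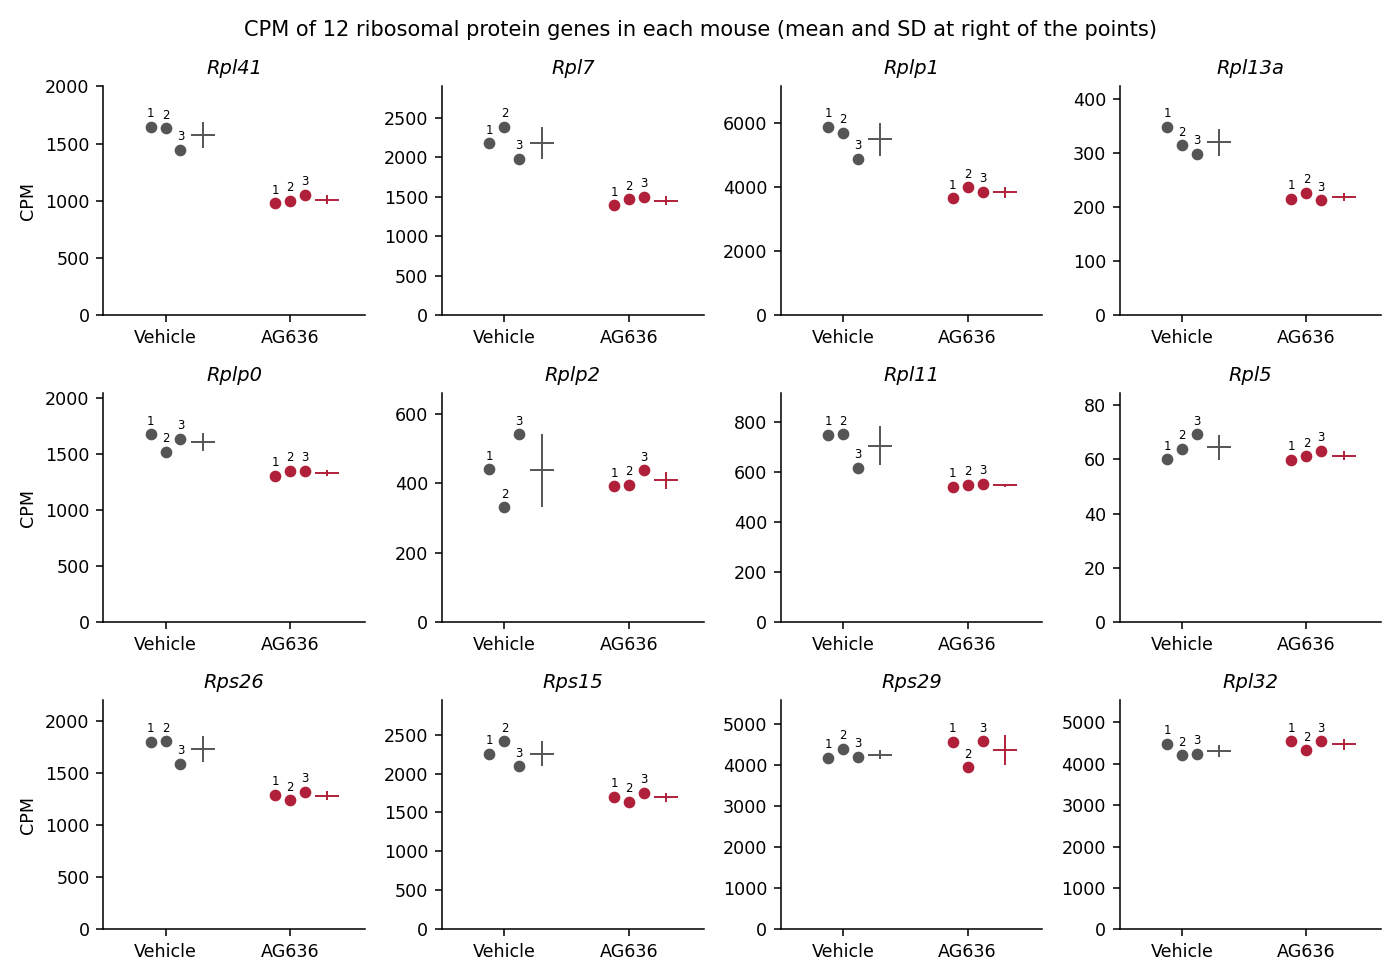
CPM of 12 genes in each mouse (numbered points), with mean and SD (3 mice) at the right of each group. In Rpl41, Rpl7, Rplp1 and Rpl13a the groups are apart, in Rplp2, Rpl5, Rps29 and Rpl32 they overlap.

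Rpl11 and Rpl5 enter the ribosome together with the 5S rRNA, and free of it they bind MDM2 and stabilise p53. Rpl11 was at 751, 752 and 619 CPM with vehicle and at 541, 549 and 553 CPM with AG636, without overlap. It fell with a log2 fold change of -0.37 (SE 0.11, adjusted p = 0.0416). Its call was kept only without Vehicle 3 when single mice were left out. Without any one of the other 5 mice the adjusted p lay between 0.0689 and 0.122, and it was 0.0877 with library size alone.

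Rpl5 was at 59.9, 63.8 and 69.2 CPM with vehicle and at 59.7, 61.0 and 63.0 CPM with AG636. The groups overlapped, and the log2 fold change was -0.07 (SE 0.13, adjusted p = 0.722), or 0.02 with library size alone. One of its annotated 3′ ends, though not that of its principal transcript, is found whole in another annotated gene, Gm15500, which held 3300 counts against 2066 for Rpl5. Gm15500 was at 115, 129 and 109 CPM with vehicle and 67.5, 80.8 and 81.5 CPM with AG636, and it fell (log2 fold change -0.62, SE 0.13, adjusted p = 0.0123). Summed with the genes that share its end, Rpl5 had a log2 fold change of -0.40 (SE 0.12, adjusted p = 0.0362). The value of Rpl5 alone is uncertain to the extent that its reads come from the shared end, since how the authors' counting divided such reads is not given in the sources used here.

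In the small subunit the lowest adjusted p belonged to Rps26 (chr10:128624534-128626747, minus strand), whose protein lies at the mRNA exit channel. It was at 1799, 1807 and 1591 CPM with vehicle and 1293, 1239 and 1323 CPM with AG636. The groups did not overlap, and the log2 fold change was -0.43 (SE 0.10, adjusted p = 0.0155). Rps15, which acts late in the export of the small subunit, was at 2251, 2413 and 2091 CPM against 1702, 1632 and 1750.1 CPM. It fell as well (log2 fold change -0.41, SE 0.10, adjusted p = 0.0174).

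Rps9 and Rps3 line the channel by which mRNA enters. Rps9 was at 4457, 4454 and 4201 CPM with vehicle and at 3337, 3570.25 and 3387 CPM with AG636 (log2 fold change -0.35, SE 0.09, adjusted p = 0.0208). Rps3, which is also a DNA repair nuclease, was at 2235, 2107 and 2214 CPM against 1711, 1736 and 1699 CPM (-0.35, SE 0.09, adjusted p = 0.0229). In Rps3 the lowest vehicle mouse was Vehicle 2, not Vehicle 3. Rps16, whose protein reaches the tRNA in the P site with its tail, was at 1696, 1882 and 1489 CPM against 1222, 1264 and 1281 CPM (-0.43, SE 0.11, adjusted p = 0.0230). In all 3 genes every AG636 mouse lay below every vehicle mouse.

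These 5 calls were not kept by all fits. Without Vehicle 1, Vehicle 2, AG636 1 or AG636 3, the adjusted p of Rps26, Rps9 and Rps16 lay between 0.0505 and 0.0790. Rps15 missed the threshold without Vehicle 2, AG636 1 or AG636 3 (0.0606, 0.0596 and 0.0536). Rps3 missed it without Vehicle 1, AG636 1 or AG636 3 (0.0687, 0.0757 and 0.0796) and with library size alone (0.0564). Over the 14 alternative fits, 4 of the 25 genes were called lower in each, all of the large subunit: Rpl41, Rpl7, Rplp1 and Rpl13a.

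Rps27a, which is made as a fusion with ubiquitin, was at 1096.5, 1108 and 911 CPM with vehicle and 829, 792 and 768 CPM with AG636. It fell (log2 fold change -0.38, SE 0.11, adjusted p = 0.0351), with the call lost without any single mouse but Vehicle 3 (adjusted p of 0.0622 to 0.115) and with library size alone (0.0695). Rps6, whose protein is the substrate that gave the S6 kinases their name, was at 532, 599.7 and 483 CPM against 455, 472 and 447 CPM. The groups did not overlap, but the gene did not pass the test (-0.23, SE 0.11, adjusted p = 0.161).

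Rps19 and Rps14 are the small subunit genes best known from blood disease, Rps19 as the gene most often mutated in Diamond-Blackfan anaemia and Rps14 from the loss of part of a chromosome in myelodysplastic syndrome. Rps19 was at 2069.8, 2247 and 1852 CPM with vehicle and at 1916, 1735 and 1976 CPM with AG636, with overlap (log2 fold change -0.13, SE 0.11, adjusted p = 0.399). Rps14 was at 4313, 4729 and 4379 CPM against 3959, 3811 and 3949 CPM, with the treated mice lower in each case, and did not pass the test (-0.20, SE 0.09, adjusted p = 0.130).

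Of the 77 genes, 4 had a log2 fold change above 0, and none of these passed the test in edgeR. They were Rpl32 (0.05, SE 0.09, adjusted p = 0.688), Rpl30 (0.04, SE 0.10, adjusted p = 0.771), Rps29 (0.03, SE 0.09, adjusted p = 0.814) and Rpl39 (0.01, SE 0.12, adjusted p = 0.973). Rpl32 was at 4486, 4202 and 4237 CPM with vehicle and 4539.9, 4322 and 4543 CPM with AG636. Rps29, a small zinc-binding protein of the 40S head, was at 4167, 4392 and 4205 CPM against 4559, 3941 and 4575 CPM.

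Rpl30 was at 1053, 987 and 1048 CPM against 1119, 1060.5 and 1005 CPM. Rpl39, which lines the exit tunnel, was at 676, 565 and 671 CPM against 677, 583 and 660.1 CPM. In each of the 4 genes the groups overlapped. Rpl39 had a value just below 0 under the median of ratios (0.00 after rounding), so its direction was not settled, and the other 3 kept a positive value under every scaling used on all 6 mice.

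The subunits had close medians. In the large subunit 14 of 46 genes (30.4%) and in the small subunit 11 of 31 (35.5%) were called lower, both above the 11.0% of all genes tested. Their median log2 fold changes were -0.32 and -0.30, a difference of -0.02. The difference was -0.11 (medians of -0.36 and -0.24) among the genes with under 50% of their most shared 3′ end in other genes, and -0.05 when genes were summed with those that share their ends. The AG636 mice all lay below the vehicle mice for 36 large and 25 small subunit genes (78.3% and 80.6%), against 20.6% of all genes tested.

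The ratio of summed large to summed small subunit counts was 1.002, 0.976 and 0.945 in Vehicle 1 to 3, and 0.925, 0.968 and 0.925 in AG636 1 to 3. AG636 2 lay above Vehicle 3, so the groups overlapped. On the log2 scale the means differed by -0.05, against a within-group SD of 0.04, and by -0.02 when mean log2 CPM over the genes were compared in place of sums.

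Other groupings of the 77 genes are given as counts called lower, to be read beside the 11.0% of all genes tested. Of the 33 proteins shared with bacteria 12 were called lower and their median was -0.35 (log2 fold change), and of the other 44 it was 13, with a median of -0.28. Among 20 genes of Diamond-Blackfan anaemia, 7 were called lower and the median was -0.34. The 30 genes that host a snoRNA had a median of -0.34 with 10 called lower, and the other 47 a median of -0.30 with 15. The 4 genes on the X chromosome had a median of -0.24 and did not pass the test, with adjusted p of 0.0507 for Rpl36a, 0.0650 for Rpl10 and 0.973 for Rpl39, and Rps4x at -0.19 (SE 0.10).

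The start of the mRNA was examined because the TOP motif is the feature these genes are known for. A C at the annotated start base followed by pyrimidines, for a run of at least 5, was present in 12 of the 57 genes with a RefSeq start (21.1%), against 2.49% of 27025 promoters. The count was also 12 when 4 pyrimidines were enough. For the 57 genes the start nearest to the GENCODE start of the principal transcript was used. For all promoters it was the first start listed per gene, so the shares rest on unlike choices of a start. A pyrimidine run of at least 8 bases within 20 bases of the start was found in 26 genes (45.6%), against 15.9% of all promoters. These are matches to annotated starts, which may lie some way from the starts used in these cells: the RefSeq start was within 20 bases of the GENCODE start of the principal transcript for 27 of the 57 genes and over 100 bases from it for 9.

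Within the 57 genes the medians with and without the motif were close. The 12 genes with a C start and at least 5 pyrimidines had 3 calls and a median of -0.28 on the log2 scale, and the other 45 had 16 calls and a median of -0.35. For the run of at least 8 bases, both the 26 genes with it and the 31 without it had a median of -0.33, with 10 and 9 called. Rpl41, printed above, has a longest run of 3 bases and the lowest adjusted p of the 77. Rplp2, Rpl5 and Rpl39 carry runs of 10, 9 and 8 bases within 20 bases of the start and were not called. The runs of Rpl5 and Rpl39 end before the printed start, so by that start they lie outside the mRNA. That of Rpl39 is cut by the window. The printed starts of Rplp2 and Rpl39 are among the 9 that lie far from the GENCODE start, and Rpl5 passed the test when summed with the genes that share its end.

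Promoter motifs were read on both strands from 250 bases before to 50 bases after the start, with starts chosen in the same unlike ways. The letters AANATGGC, the core of the YY1 site, were found in 10 of the 57 promoters (17.5%, against 6.23% of all promoters). CCGGAAG, the core of sites for ETS factors such as GABPA, was found in 23 (40.4%, against 9.12%). Its reverse strand holds a CTTCC run, so it can overlap a pyrimidine run. TATAA was found in 15 (26.3%, against 25.5%) and the E-box CACGTG in 5 (8.77%, against 7.24%). Among the 10 genes with the YY1 letters 1 was called lower, as were 11.0% of all genes tested, and the median log2 fold change was -0.23, and the 47 without them a median of -0.34 with 18 called. The 23 genes with the ETS letters had a median of -0.31 with 8 called, and the 34 without a median of -0.34 with 11.

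Ribosomal protein genes have many near-identical pseudogenes, and a read from the last bases of an mRNA may fit more than 1 of them. For 49 of the 77 genes, at least 50% of the 75-base stretches of a most shared 3′ end occurred in transcripts of other annotated genes. The median log2 fold change was -0.31 in these 49 and -0.31 in the other 28, with 11 and 14 called lower. The principal transcript's own end was shared to that extent in 29 genes, with a median of -0.38 and 8 called, and not in the other 48, with a median of -0.26 and 17 called. Among the genes described above, Rpl15 and Rpl11 (100%), Rpl7 (92.9%), Rps27a (85.8%) and Rpl18 (85.0%) belong to the 49, whereas Rpl41 (48.4%), Rps26 (47.3%), Rpl13a (16.4%) and Rps16 and Rps3 (both 0%) do not. The ends of the principal transcripts of Rpl15 and Rpl11 were not shared. Of the 13 genes with under 2500 counts in total, a limit set after the counts were seen, 11 belonged to the 49.

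The lowest counts belonged to Rps27 with 200, Rps7 with 206 and Rpl27 with 233. Rps27 had the most negative log2 fold change of the 77 (-0.74, SE 0.29, adjusted p = 0.0907), from 7.31, 6.28 and 9.19 CPM with vehicle to 4.25, 5.36 and 3.96 CPM with AG636. Rps7, with the largest standard error, was at 7.67, 6.80 and 7.31 CPM against 4.25, 7.01 and 4.15 CPM (-0.50, SE 0.29, adjusted p = 0.248). Neither gene passed the test, and in Rps7 the groups overlapped.

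For 8 genes a single other gene that shares the end held more counts than the gene itself. Rps12 had 674 counts and Rps12-ps3 had 20521, and Rpl23a had 1092 and Rpl23a-ps3 had 28001. Rps12 was called lower (log2 fold change -0.64, SE 0.19, adjusted p = 0.0392) but Rps12 summed with all genes that share its end was not (-0.29, SE 0.12, adjusted p = 0.113). Rpl23a moved from -0.46 to -0.27 in the same sum and was not called either way (adjusted p = 0.0881 and 0.123). Rpl21 moved from -0.26 to -0.02. Over the 77 genes, such sums left 27 called lower, against 11.2% of all genes, and a median of -0.33. Relative to a gene's own counts, overlap on the opposite strand was largest for Rpl35, with 605 counts against 3179 for Arpc5l, and next for Rps2, with 26453 against 8840 for Snhg9, and neither of these members was called.

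**Figure D4:**
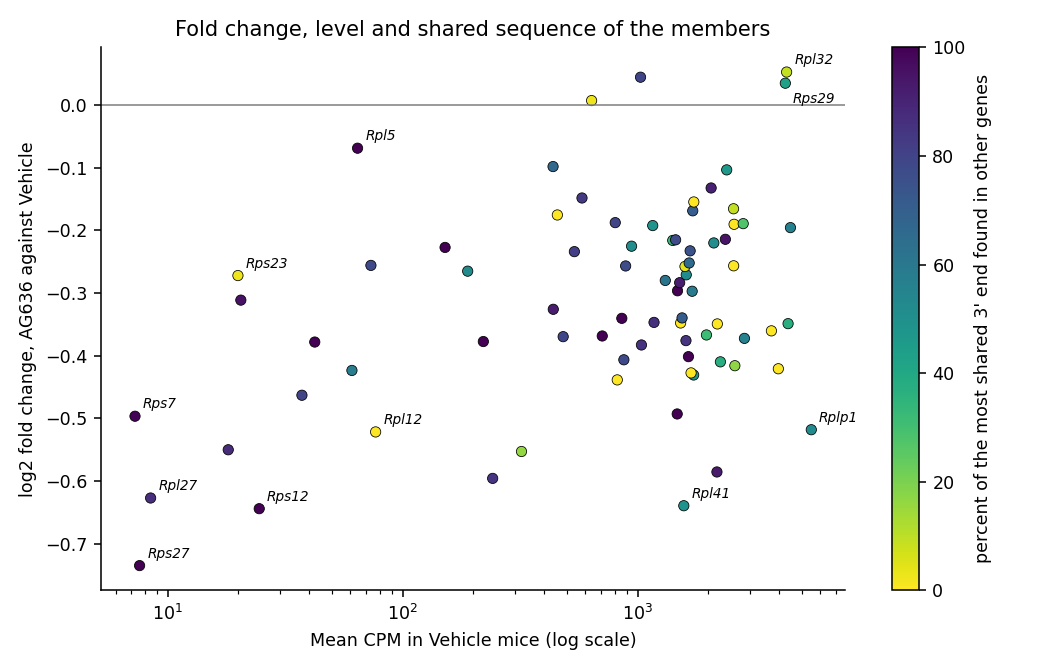
log2 fold change of the 77 genes against mean CPM in the Vehicle mice (log axis), coloured by the percent of 75-base stretches of a gene's most shared 3′ end that occur in other annotated genes. The most negative values include genes under 30 CPM with nearly fully shared ends (Rps27, Rps12, Rpl27), but Rpl41 and Rplp1 lie far to the right.

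Genes close to the ribosomal proteins were read from lists of their own. Of 22 other RNAs known for a TOP motif, 12 were called lower and 1 higher, with a median log2 fold change of -0.32. The 12 include the noncoding RNAs Snhg1 (-1.01, SE 0.17, adjusted p = 0.00549), the lowest value of the list, and Gas5 (-0.64, SE 0.12, adjusted p = 0.00880). Of all genes tested, 11.0% were called lower and 10.3% higher. Npm1, a nucleolar chaperone, fell from 2537, 2160.3 and 2079 CPM to 1142, 1322 and 983 CPM (log2 fold change -0.97, SE 0.13, adjusted p = 0.00298). Eef1g, a subunit of the factor that recharges eEF1A, was at 713, 771 and 691 CPM against 398, 391 and 397 CPM (-0.87, SE 0.10, adjusted p = 0.00203). Both fell further than any of the 77 genes that passed the test, while Eef2, the elongation factor for translocation, had a value of 0.05 (SE 0.10, adjusted p = 0.766). Vim, which encodes vimentin, was the gene that rose (0.72, SE 0.15, adjusted p = 0.0115).

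Chaperones, importers and assembly partners bring ribosomal proteins to the nucleolus. Of 15 on the list, 15 had values below 0 and 6 were called lower, where 47.7% and 11.0% of all genes tested were. The 6 were Grwd1, Heatr3, Kpnb1, Ltv1, Rpf2 and Ipo5, and the median for the list was -0.61. Grwd1, the chaperone of Rpl3, was at 72.7, 67.3 and 47.5 CPM with vehicle and 30.3, 39.2 and 27.3 CPM with AG636 (log2 fold change -0.96, SE 0.20, adjusted p = 0.0120). Kpnb1, the importin beta subunit, was at 321, 312 and 319 CPM against 170.4, 190.1 and 169.6 CPM (-0.84, SE 0.11, adjusted p = 0.00259).

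Of 16 regulators of these mRNAs and S6 kinases, 3 fell, where 11.0% of all genes tested were called lower, and the median was -0.13. Larp1, which binds the TOP motif, was at 605, 458 and 449 CPM with vehicle and at 289, 358 and 254 CPM with AG636 (log2 fold change -0.75, SE 0.16, adjusted p = 0.0130). Larp1b (-0.78) and Eif4ebp1 (-0.57), the translation repressor under mTOR, were the others. Mtor (-0.11, adjusted p = 0.671), Rps6kb1 (-0.07, adjusted p = 0.748) and Yy1 (-0.07, adjusted p = 0.659) did not pass. Of 6 tested paralogs and ribosomal proteins with other names, Rpl36al (-0.45, adjusted p = 0.0254) and Rpl22l1 (-0.42, adjusted p = 0.0197) fell, to be read beside the same 11.0%. Rack1 (-0.17, adjusted p = 0.175) and Fau (-0.07, adjusted p = 0.776) did not pass.

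**Figure D5:**
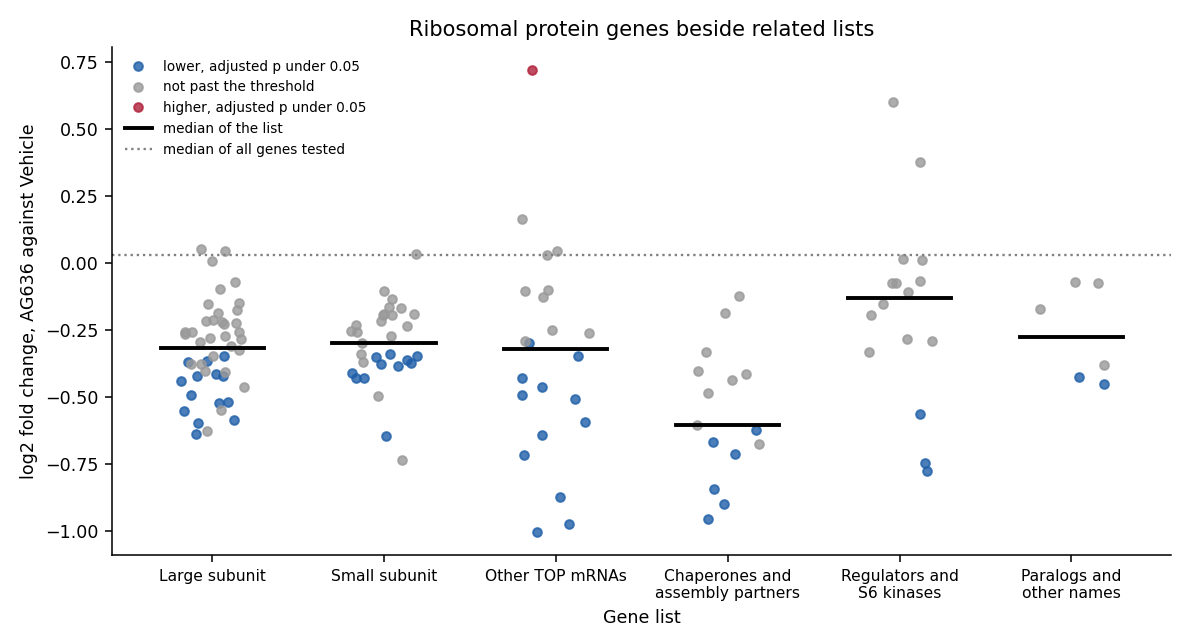
log2 fold change of each gene in the 2 subunits and 4 related lists, with list medians (black bars) and the median of all genes tested (dotted, 0.03). The subunit medians (-0.32 and -0.30) lie close to that of the list labelled other TOP mRNAs (-0.32), which also holds noncoding RNAs. That of the chaperones and assembly partners is lower (-0.61).

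Some markers of maturation and of other lineages differed between the groups too, though the summed level of each list overlapped. Of 14 genes of neutrophil maturation, 7 were called higher with AG636, where 10.3% of all genes tested were. Among the 7 were Ngp (log2 fold change 1.67, adjusted p = 0.00271) and Camp (1.34, adjusted p = 0.0120). Elane (1.05, adjusted p = 0.152), Prtn3 (0.41, adjusted p = 0.521) and Ctsg (0.34, adjusted p = 0.548) did not pass, nor did S100a8, Mmp8, Mmp9 and Mpo. Their summed level ranged from 2960 to 6688 CPM with vehicle and from 4429 to 10447 CPM with AG636. The sum was led by Mpo in the vehicle mice and AG636 3, and by S100a8 in AG636 1 (3139 CPM) and AG636 2 (1323 CPM). Mpo, the member with a value below 0 (log2 fold change -0.65, adjusted p = 0.266), was at 1248 to 2764 CPM with vehicle. With AG636 it was at 2015, 615 and 1697 CPM. The 7 genes called higher were above every vehicle mouse in all AG636 mice, and in AG636 2 Ngp was at 316 CPM and Camp at 173 CPM. Of 9 erythroid genes, 2 were called lower, where 11.0% of all genes tested were, and their sum ranged from 1869 to 5035 CPM with vehicle and from 1998 to 3517 CPM with AG636.

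Vehicle 3 had the lowest erythroid sum and the highest neutrophil sum of the vehicle mice, and the lowest median over the 77 genes. Of the 3 tested of 4 megakaryocyte genes, 2 were called higher, where 10.3% of all genes tested were (sum of 733 to 1155 CPM with vehicle, 1018 to 1655 with AG636). The 6 tested of 8 monocyte genes did not pass the test (sum of 55.1 to 76.2 CPM against 71.5 to 96.3, median log2 fold change 0.50). The lymphoid markers Ms4a1, Pax5, Cd3e, Cd3g and Cd4 were at no more than 0.616 CPM in any mouse and at 0 in some, although Cd79b (5.33 to 19.0 CPM) and Nkg7 (191 to 491 CPM) were detected. The part of these cell markers in the values of the 77 genes was not tested.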

How the data were processed

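RNA was extracted from sorted I1DN cells of 6 mice, libraries were made with the QuantSeq 3′ kit, and reads of 75 bases were sequenced. The authors deposited raw counts of reads per gene, not normalized. The submitters' processing notes name FastQC, cutadapt 1.9.1, HISAT2 2.0.4 and featureCounts of Subread 1.5.0-p3 with GRCm38 (mm10), whereas the study's methods name other versions of cutadapt and Subread. The annotation release, use of strand and treatment of multi-mapping reads are not given in the sources used here. Groups and replicate numbers came from the sample labels, and the number of per-sample columns not used was 0.

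GENCODE's mouse annotation on GRCm38 gave symbols to 54809 of 54838 identifiers and the same bounds as the deposited table for 75 of the 77 members. Genes were kept by filterByExpr (minimum count 10, minimum total 15), scaled with TMM and tested with edgeR 4.0.16 (quasi-likelihood, Benjamini-Hochberg, all genes tested) in R 4.3.3, using all 6 mice and no covariate. The threshold was an adjusted p of 0.05. Standard errors are the log2 fold change divided by the square root of F. The scripts were tested on simulated data. Exact permutation tests of 3 mice against 3 cannot give a two-sided p below 0.1, so single genes rest on the edgeR fit. The p-values measure the spread among these mice, each of which gave 1 library, and replicates differed by more than sampling noise (chi-square per degree of freedom 6.22 to 14.6 within groups).

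Alternatives were DESeq2 1.42.0, limma-voom (limma 3.58.1), library size alone, TMM without the members, the median of ratios, 2 other filters, a replicate block, each mouse left out, and stricter thresholds. Sums with genes that share a 3′ end, the members with under 50% of an end shared, and fits without Vehicle 3 under each scaling were added after seeing the data. The members and lists were chosen with earlier results of these data known. Named were, in each subunit, the 5 members with the lowest adjusted p, all members above 0, the P-stalk, Rpl5, Rpl11, Rps19, Rps14, Rps6, Rps27a, Rpl15, the 3 with the highest CPM and the 2 with the largest standard error. Other members named were chosen after their values were seen. Shared ends were the last 300 bases of annotated transcripts. Sequences are from RefSeq, and no protein sequence was used here. Results for some genes are not reported here.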

Additional observations from a re-analysis of the deposited data

How the results depend on the processing

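The count of 25 members called lower lay between 22 and 30 with DESeq2, limma-voom, the median of ratios, TMM without the members, the other filters and the replicate block, and 0 were called higher in any fit. With library size alone it was 11 (7 large and 4 small subunit members), with medians of -0.22 for the members, -0.23 for the large and -0.21 for the small subunit. At an adjusted p under 0.01 it was 3 (3 large, 0 small), and with a fold change of at least 1.5 it was 4 (3 large, 1 small). Among the 28 members with under 50% of an end shared it was 14 (8 large, 6 small), with a difference between the large and small subunit medians of -0.113. That difference was -0.045 when members were summed with genes that share their ends.

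Leaving out 1 mouse at a time gave 4 to 38 members called lower, 4 to 24 of the large and 0 to 14 of the small subunit. Of all genes, 4.03% to 11.3% were called lower. In the fits with 4 to 6 members called (without Vehicle 1, Vehicle 2, AG636 1 or AG636 3), 5.19% to 7.79% of the members and 4.03% to 6.18% of all genes were called lower. The median over the members ranged from -0.398 to -0.296, that of the large subunit from -0.402 to -0.297, that of the small subunit from -0.363 to -0.274 and their difference from -0.039 to -0.019. These fits have fewer residual degrees of freedom. Without Vehicle 3, the median of ratios gave 38 members called lower (24 large, medians -0.401 and -0.404 for all and large members). TMM without the members gave 39 (24 large, medians -0.402 and -0.406) and library size alone 18 (7 small). In the same order, 11.2%, 11.5% and 7.34% of all genes tested were called lower.

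Among single members, Rpl39 changed direction with DESeq2 (-0.0024), the median of ratios (-0.0025), TMM without the members (-0.0053) and no filter (-0.018), and ranged from -0.082 to 0.068 with 1 mouse left out, below 0 without Vehicle 2, AG636 1 or AG636 3. Rpl5 was at 0.019 with library size alone and at 0.086 with Vehicle 3 left out as well. Rplp2 ranged from -0.274 to 0.063 with 1 mouse left out, above 0 without Vehicle 3, where it was also at 0.187, 0.0581 and 0.0582 with library size alone, the median of ratios and TMM without the members. Rps29 ranged from -0.0017 to 0.101, below 0 without AG636 1 (-0.0017) or AG636 3 (-0.00087). The cause of these changes was not tested.

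Same-numbered mice of the 2 groups share only a number: the correlations of their deviations from the group means were -0.06, -0.18 and 0.22. With the replicate block, 22 members were called lower (13 large, 9 small), against 9.43% of all genes. The median was -0.31, and Rpl11 missed the threshold (adjusted p = 0.0645). The share of counts without members that failed the filter was not run, since all passed. Low counts limit Rps27, Rps7 and Rpl27, whose standard errors were 0.28 to 0.29.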
